A study of Homo sapiens with 3 samples.

Results

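The 47 genes described here encode the subunits, activators and assembly chaperones of the proteasome. They were taken by symbol from a list of the alpha and beta subunits of the 20S core (PSMA, PSMB), the ATPases and other subunits of the 19S regulatory particle (PSMC, PSMD), the activators and the inhibitor (PSME, PSMF1) and the assembly chaperones (PSMG, POMP and 3 PSMD genes). All 47 were found among 25819 named genes, and 40 of them reached the mean of 1 FPKM (fragments per kilobase of transcript, scaled to the mapped total of the library) needed for the test across 3868 genes, the other 7 being PSMB9, PSMB10, PSMD5, PSMD12, PSMG1, PSMG2 and PSME4. The cells were MTAC-P, a human lung cancer line that was derived from PC9 and resists EGFR tyrosine kinase inhibitors, with no added treatment named. The control group is 1 library of cells with a short hairpin RNA against luciferase, and the shBCAT1 group is 2 libraries of cells with a short hairpin RNA against BCAT1, the cytosolic branched-chain aminotransferase. Whether one hairpin or several were used for the pair numbered 1 and 2, and whether these were grown apart, is not stated, so p-values measure only the spread between these samples, which may be technical. In bulk RNA of a cell line, fewer cells making a transcript and less of it per cell cannot be told apart.

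The 26S proteasome degrades proteins that carry ubiquitin chains. Its 20S core is a barrel of stacked alpha and beta rings with the cutting sites inside, on the beta subunits PSMB5, PSMB6 and PSMB7. The 19S particle caps the barrel, binds the ubiquitin chain, removes it and uses a ring of ATPases to unfold the substrate and feed it in. In cells exposed to interferon, PSMB8, PSMB9 and PSMB10 take the places of PSMB5, PSMB6 and PSMB7, which makes the immunoproteasome and favours peptides that fit MHC class I. When proteasome activity is low, the transcription factor NRF1 (gene NFE2L1) raises transcription of the subunit genes together.

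Several properties of the whole series bear on these genes. BCAT1 itself was at 0.213 FPKM in the control (bounds 0.129 to 0.297), 1.05 in the library labelled shBCAT1 1 (0.835 to 1.27) and 0.241 in the library labelled shBCAT1 2 (0.158 to 0.325), so its summed level goes against the first label and shows no reduction in the other. Directions below are therefore between libraries as labelled. Summed FPKM over all genes was 53345, 43776 and 45608 in the control, shBCAT1 1 and shBCAT1 2. The library labelled shBCAT1 1 held 1.03 and the library labelled shBCAT1 2 held 1.09 times the mapped fragments of the control, as read from the bounds of genes with 1 transcript. The median difference of all genes tested from the control was -0.12 on the log2(FPKM + 1) scale in shBCAT1 1 and 0.01 in shBCAT1 2. The 8 epithelial markers examined summed to between 786 and 1092 FPKM, nearly all of it keratin mRNA, and the lung markers NKX2-1 and SFTPB were at or below 0.101 FPKM in every library. Of 12 markers of blood, fibroblast and endothelial cells, none exceeded 0.259 FPKM.

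In FPKM as deposited, more proteasome genes were below than above the control in the libraries labelled shBCAT1, by amounts that did not pass the test for any gene and that depended on the scaling. No test of the list was made. Of the 47 genes, 29 were below the control in both libraries, 5 were above it in both and 13 were below in one and above in the other. Among the 40 tested, 25 were lower in both (62.5%), where 43.7% of all genes tested were, and 3 were higher in both (7.5%), where 25.6% of all genes were. With quantile normalization 19 were lower (47.5%, beside 32.1% of all genes) and 10 higher (25%, beside 38.3%). With the trend of all genes with transcript length removed 16 were lower (40.0%, beside 34.4%) and 11 higher (27.5%, beside 34.9%). Since both differences share the 1 control library, these counts are descriptions. Their median fitted difference was -0.19 on the log2(FPKM + 1) scale, beside -0.06 for all genes tested, and values ranged from -0.59 for PSMA3 to 0.24 for PSMD3. The median was -0.054 with quantile normalization, beside 0.018 for all genes, and -0.032 with the length trend removed, beside 0.01. By limma, 0 of the 40 passed an adjusted p of 0.05 (0.797 to 0.997), against 0.362% of all genes called lower and 0% called higher. At an unadjusted p under 0.05, 1 proteasome gene was lower (PSMA3) and 0 were higher, where 5.02% and 0.569% of all genes were. The sum over the 47 genes was 288 FPKM in the control, 236 in shBCAT1 1 and 249 in shBCAT1 2. As a share of all FPKM in the library this was 0.541%, 0.539% and 0.547%, nearly the same in each.

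**Figure D1:**
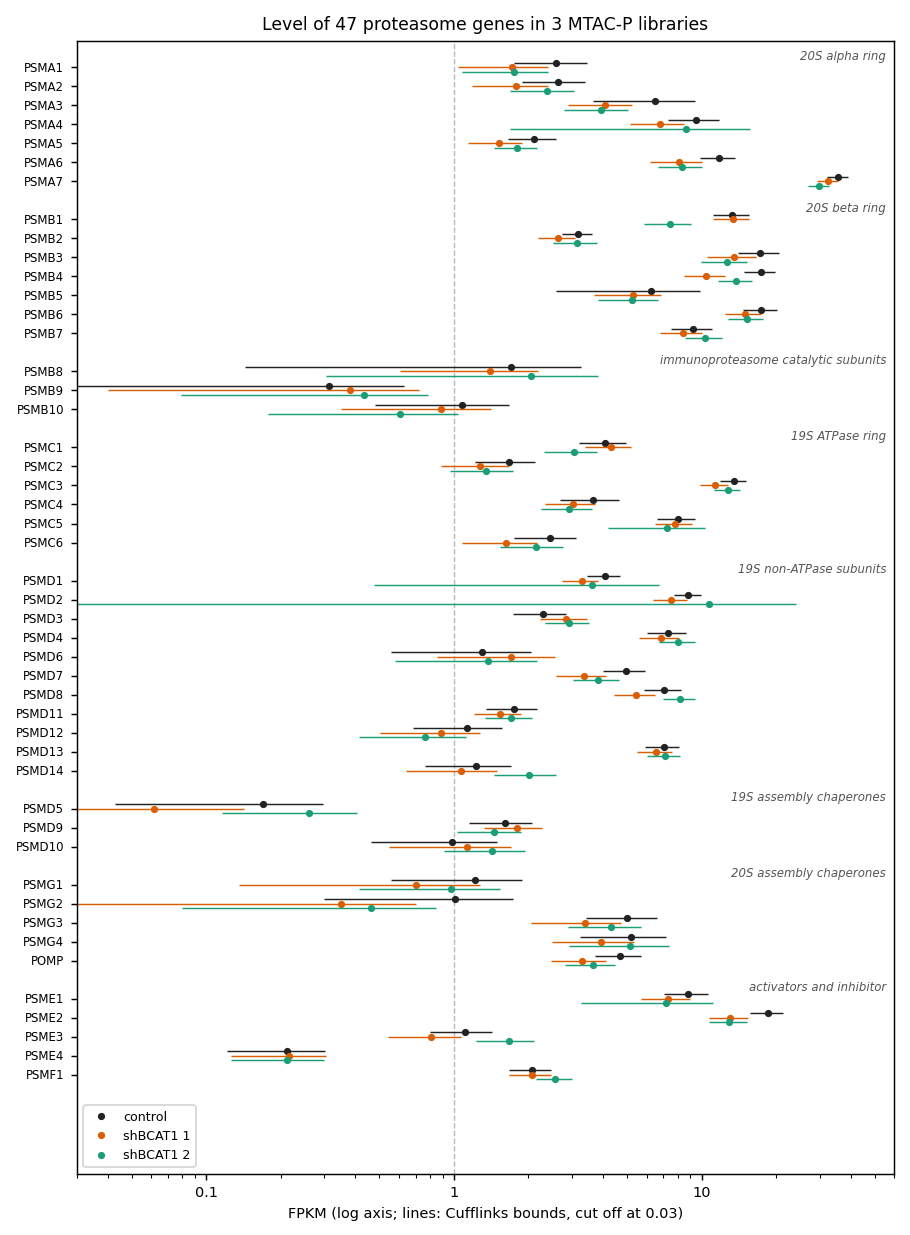
FPKM of the 47 genes (log axis) in the control (black), shBCAT1 1 (orange) and shBCAT1 2 (green), grouped by role, with lines from the lower to the upper bound. PSMA7 is the highest gene in each library, at 35.4, 32.4 and 29.8 FPKM, and the dashed line marks 1 FPKM.

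The bounds deposited with each value show how much of such differences counting and the assignment of fragments to transcripts could give. For a typical proteasome gene the SD implied by the bounds was 11.7% of the value in the control, 12.2% in shBCAT1 1 and 14.1% in shBCAT1 2. Only PSME2, 1 of the 40 tested genes, had bounds below the control's in each library (4.19% of all genes tested), and 0 had bounds above them (1.22%). In shBCAT1 1 alone, bounds were below the control's for PSMB4 and PSME2 (7.6% of all genes) and above for 0 (1.6%). In shBCAT1 2 alone they were below for PSMB1 and PSME2 (7.65%) and above for 0 (7.34%). A 2-fold difference in FPKM + 1 in both libraries was reached by 0 of the 40 in either direction, beside 0.414% of all genes lower and 0.0517% higher. The order of the genes by level was nearly the same in every library. Across the 47 genes, log2(FPKM + 1) in the control correlated at r = 0.985 with shBCAT1 1 and 0.977 with shBCAT1 2, and at 0.978 between the libraries labelled shBCAT1, the genes not being independent replicates.

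The alpha ring, which forms the gate of the 20S core and holds no cutting site, lay on one side of the control. All 7 genes were lower in both libraries, as were 43.7% of all genes tested. Their sum was 70.5 FPKM in the control, 56.3 in shBCAT1 1 and 56.7 in shBCAT1 2. The median fitted difference was -0.27 and the values ran from -0.59 to -0.18. PSMA3 (chromosome 14, 58244805 to 58272009, hg38) was at 6.51 FPKM in the control, 4.05 in shBCAT1 1 and 3.91 in shBCAT1 2. The libraries labelled shBCAT1 lay close together and below the control, but the control's bounds (3.65 to 9.36) overlapped theirs. The fitted difference was -0.59 ± 0.19 (SE), with an unadjusted p of 0.0358 and an adjusted p of 0.797 by limma. In the control, 21.5% of its FPKM lay on the noncoding transcript NR_038123 (1.40, bounds 0 to 3.72), which was near 0 in the other libraries. With transcripts kept apart the difference was -0.21, and with the length trend removed it was -0.32. PSMA6 was at 11.7 FPKM in the control, 8.10 in shBCAT1 1 and 8.35 in shBCAT1 2, a difference of -0.47 ± 0.19. PSMA1 was at 2.59, 1.72 and 1.74 FPKM in the same order, a difference of -0.40 ± 0.18. In both genes the libraries labelled shBCAT1 stood together below the control with overlapping bounds, and the adjusted p was 0.797 by limma. With the length trend removed PSMA6 was at -0.22 and PSMA1 at -0.27. PSMA7, the most abundant of the ring, rested on 442, 416 and 405 fragments, giving 35.4, 32.4 and 29.8 FPKM. Its bounds overlapped between all libraries, and its difference of -0.18 ± 0.18 turned to 0.18 with quantile normalization and to 0.072 with the length trend removed. PSMA2, PSMA4 and PSMA5 had differences between -0.27 and -0.23 by the same fit.

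The promoter of PSMA3 is shown because this gene had the lowest fitted difference of the list. The 250 bases before its RefSeq start (GRCh38.p14, chr14:58244593-58244842, plus strand) hold CCAAT boxes on both strands, in capitals (ATTGG is the minus strand form), beginning at positions -35 and -18 from that start. The deposited loci of PSMA3 and PSMD3 begin inside the windows shown here and below, upstream of the RefSeq start used. Both CCAAT boxes of PSMA3 lie inside its deposited locus, after its first base.
PSMA3 promoter: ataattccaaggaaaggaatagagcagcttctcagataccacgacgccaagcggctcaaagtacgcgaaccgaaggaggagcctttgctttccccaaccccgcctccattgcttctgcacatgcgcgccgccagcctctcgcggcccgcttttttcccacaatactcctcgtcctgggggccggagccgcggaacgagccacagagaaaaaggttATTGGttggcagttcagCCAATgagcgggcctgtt

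In the beta ring, 5 of 7 genes were lower in both libraries (beside 43.7% of all genes tested) and 2 were mixed, with a median fitted difference of -0.21. The ring summed to 83.9 FPKM in the control, 68.6 in shBCAT1 1 and 67.7 in shBCAT1 2. PSMB4, a structural beta subunit, rested on 188 fragments in the control, 117 in shBCAT1 1 and 163 in shBCAT1 2, which gave 17.3, 10.4 and 13.8 FPKM. Its bounds lay below those of the control in shBCAT1 1 and overlapped them in shBCAT1 2, and the difference was -0.49 ± 0.25 (SE), adjusted p 0.797 by limma, and -0.23 with the length trend removed. PSMB3, also structural, was at 17.3 FPKM in the control, 13.5 in shBCAT1 1 and 12.6 in shBCAT1 2, with overlapping bounds and a difference of -0.38 ± 0.19. This became -0.13 with quantile normalization and -0.018 with the length trend removed. Within the ring, PSMB1 showed the widest split between the libraries labelled shBCAT1. It rested on 143 fragments in the control, 148 in shBCAT1 1 and 87 in shBCAT1 2, at 13.3, 13.4 and 7.43 FPKM. The library labelled shBCAT1 2 thus stood alone, with bounds below those of both others. This gene was singled out after its values were seen. Its difference of -0.38 ± 0.38 had an adjusted p of 0.849 by limma and rested on shBCAT1 2 (-0.76), shBCAT1 1 being at 0.01. PSMB2 had a difference of -0.10.

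The catalytic subunits of the constitutive core did not pass the test either. PSMB5, which cuts after hydrophobic residues, was at 6.22 FPKM in the control, 5.28 in shBCAT1 1 and 5.25 in shBCAT1 2. PSMB6, which cuts after acidic residues, was at 17.4, 14.9 and 15.2 FPKM. PSMB7, which cuts after basic residues, was at 9.25, 8.42 and 10.3 FPKM, on 113, 106 and 137 fragments. The first pair was lower in both libraries, the last lower in one and higher in the other, and all bounds overlapped those of the control. Their fitted differences were -0.21 ± 0.19, -0.20 ± 0.19 and 0.01 ± 0.22, with adjusted p of 0.841, 0.843 and 0.995 by limma. With the length trend removed PSMB5 was at 0.0044, PSMB6 at 0.11 and PSMB7 at 0.27.

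PSMB9 and PSMB10 of the immunoproteasome were scarce in these cells, and PSMB8 was low but above the ATPase gene PSMC2 in every library. PSMB8 was at 1.70 FPKM in the control, 1.40 in shBCAT1 1 and 2.05 in shBCAT1 2, with bounds that reached from 0.144 to 3.25 in the control. PSMB9 was at 0.315, 0.382 and 0.433 FPKM. PSMB10 rested on 13, 11 and 8 fragments, at 1.08, 0.883 and 0.608 FPKM. No order among the libraries stands out from these wide bounds, and PSMB9 and PSMB10 were below the level needed for the test. As a share of its constitutive counterpart, FPKM being per length, PSMB8 was at 27.3% of PSMB5 in the control, 26.5% in shBCAT1 1 and 39.2% in shBCAT1 2. The SDs implied by the bounds were 14.8, 8.50 and 17.5 percentage points. PSMB9 was at 1.81%, 2.56% and 2.85% of PSMB6. PSMB10 was at 11.6%, 10.5% and 5.90% of PSMB7, with SDs of 3.41, 3.32 and 2.15 points. Each immunoproteasome gene was thus below its counterpart in every library, and intervals of 2 such SDs around its share overlapped between libraries. The bounds of PSMB8 overlapped those of PSMB5 in the control and in shBCAT1 2. The copies of PSMB8 and PSMB9 on alternative sequences of the MHC region (14 and 7 entries) were all at 0.

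In the ATPase ring of the 19S particle, 5 of 6 genes were lower in both libraries (beside 43.7% of all genes tested) and PSMC1 was mixed. The differences were small, with a median of -0.18 and a range of -0.26 to -0.08. PSMC3, the most abundant ATPase, rested on 279 fragments in the control, 242 in shBCAT1 1 and 288 in shBCAT1 2, at 13.5, 11.3 and 12.8 FPKM. PSMC6 was at 2.44, 1.62 and 2.15 FPKM and PSMC2 at 1.67, 1.28 and 1.35. PSMC4 was at 3.66 FPKM in the control, 3.02 in shBCAT1 1 and 2.92 in shBCAT1 2. The control was the highest library for each of these ATPases, and all bounds overlapped. The adjusted p by limma was 0.876 for PSMC3 and 0.836 for PSMC6, PSMC2 and PSMC4. PSMC3 turned to 0.079 with quantile normalization. PSMC1 and PSMC5 had differences of -0.14 and -0.08.

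The other 19S subunits had no common direction. Of 11 genes, 4 were lower in both libraries, 2 were higher in both and 5 were mixed. Of the 10 tested, 3 were lower and 2 higher in both, beside 43.7% and 25.6% of all genes tested. Their median fitted difference was -0.01, close to the -0.06 of all genes. The 11 genes summed to 46.9 FPKM in the control, 41.0 in shBCAT1 1 and 50.3 in shBCAT1 2. PSMD7, the partner of the deubiquitinase PSMD14, rested on 109, 76 and 92 fragments, at 4.94 FPKM in the control, 3.34 in shBCAT1 1 and 3.83 in shBCAT1 2. Its difference was -0.38 ± 0.20 (SE), with an adjusted p of 0.802 by limma. PSMD14, which cuts the ubiquitin chain from the substrate, rested on 28, 25 and 50 fragments, at 1.23, 1.07 and 2.02 FPKM, highest in shBCAT1 2, whose bounds (1.45 to 2.59) overlapped those of both other libraries. PSMD8, a lid subunit, rested on 142, 113 and 179 fragments and was at 7.07, 5.45 and 8.17 FPKM, with the bounds of the libraries labelled shBCAT1 apart from each other. PSMD14 and PSMD8 were picked after their values were seen. Bounds of shBCAT1 2 above those of shBCAT1 1 were found for 2 of the 40 tested genes, PSMD8 and PSME3 (7.73% of all genes), and bounds below them for 1, PSMB1 (1.84%). PSMD12, a lid subunit below the level for the test, was at 1.13, 0.890 and 0.766 FPKM. PSMD1, PSMD4, PSMD11 and PSMD13 had differences between -0.19 and 0.02.

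PSMD3, another lid subunit (chromosome 17, 39980768 to 39997960), had the highest fitted difference. It rested on 68 fragments in the control, 87 in shBCAT1 1 and 95 in shBCAT1 2, at 2.28, 2.83 and 2.92 FPKM. Both libraries labelled shBCAT1 were above the control with overlapping bounds, and the difference was 0.24 ± 0.19, adjusted p 0.830 by limma. PSMD6 was also higher in both, at 1.30, 1.70 and 1.37 FPKM, a difference of 0.14 ± 0.19. PSMD2, a scaffold subunit of the base, was the most abundant of the group, at 8.84, 7.55 and 10.7 FPKM. The promoter of PSMD3 is shown as the counterpart of that of PSMA3. The 250 bases before its RefSeq start (GRCh38.p14, chr17:39980557-39980806, plus strand) hold a CCAAT box on the minus strand and, close to the start, the core letters TGACNNNGC of an antioxidant response element, both in capitals. The TGACNNNGC letters lie inside the deposited locus, after its first base.
PSMD3 promoter: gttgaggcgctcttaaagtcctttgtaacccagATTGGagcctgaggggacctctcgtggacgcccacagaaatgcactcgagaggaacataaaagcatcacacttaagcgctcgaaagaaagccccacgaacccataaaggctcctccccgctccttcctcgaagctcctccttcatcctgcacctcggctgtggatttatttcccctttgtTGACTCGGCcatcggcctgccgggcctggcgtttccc

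Chaperones of the 20S core were below the control in each library, while the 19S chaperones had no common direction. PSMG1 to PSMG4 and POMP, which order the alpha ring and guide the beta subunits into it, made up the first group. In it 5 of 5 were lower in both, beside 35.2% of all genes with no filter. Only 3 of these were tested, and 43.7% of all genes tested were lower in both. POMP rested on 89 fragments in the control, 64 in shBCAT1 1 and 75 in shBCAT1 2, at 4.70, 3.28 and 3.64 FPKM, a difference of -0.36 ± 0.20 (SE) with an adjusted p of 0.802 by limma. PSMG2 was at 1.01, 0.350 and 0.463 FPKM. PSMG3 was at 5.001, 3.39 and 4.30 FPKM and PSMG4 at 5.19, 3.91 and 5.13. The control was the highest library for every one of these, with overlapping bounds. With the length trend removed POMP was at -0.19, PSMG3 at -0.05 and PSMG4 at -0.073. PSMG2 was at 0.345 times the control in shBCAT1 1 and 0.457 times in shBCAT1 2, the lowest pair of ratios among the 29 genes lower in both, but its bounds in the control were 0.300 to 1.72 FPKM. It was below the level for the test, and with no filter its difference was -0.52, adjusted p 0.806 by limma. PSMG1 was at 1.22, 0.703 and 0.977 FPKM, also below that level. Of the 19S chaperones, none was lower in both libraries. PSMD10 (gankyrin) was at 0.978, 1.12 and 1.42 FPKM, higher in both by a difference of 0.20 ± 0.19. PSMD9 was at 1.61, 1.80 and 1.45 FPKM and PSMD5 at 0.169, 0.0615 and 0.261, both mixed. Whether the chaperone groups differ from each other was not tested.

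Among the activators, PSME1 and PSME2, which form the interferon-inducible 11S cap (PA28), were lower in both libraries. PSME2 (chromosome 14, 24143365 to 24146646) rested on 174 fragments in the control, 127 in shBCAT1 1 and 133 in shBCAT1 2. Its level was 18.5 FPKM in the control (15.7 to 21.3), 13.1 in shBCAT1 1 (10.8 to 15.4) and 13.0 in shBCAT1 2 (10.7 to 15.2). Both libraries labelled shBCAT1 lay below the control with no overlap of bounds, at 0.708 and 0.702 times its value. The difference was -0.47 ± 0.19 (SE) with an adjusted p of 0.797 by limma. Quantile normalization gave -0.21, and with median-of-ratios scaling the bounds overlapped. PSME1 was at 8.84, 7.33 and 7.17 FPKM, a difference of -0.25 ± 0.19. Quantile normalization gave -0.096 and removal of the length trend -0.0027. PSME3, the nuclear activator, was at 1.11, 0.806 and 1.66 FPKM. PSME4, the large nuclear activator PA200, rested on 22, 23 and 24 fragments, at 0.212, 0.215 and 0.212 FPKM, the same within counting. PSMF1, an inhibitor of the core, was at 2.08 FPKM in the control, 2.07 in shBCAT1 1 and 2.57 in shBCAT1 2.

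**Figure D2:**
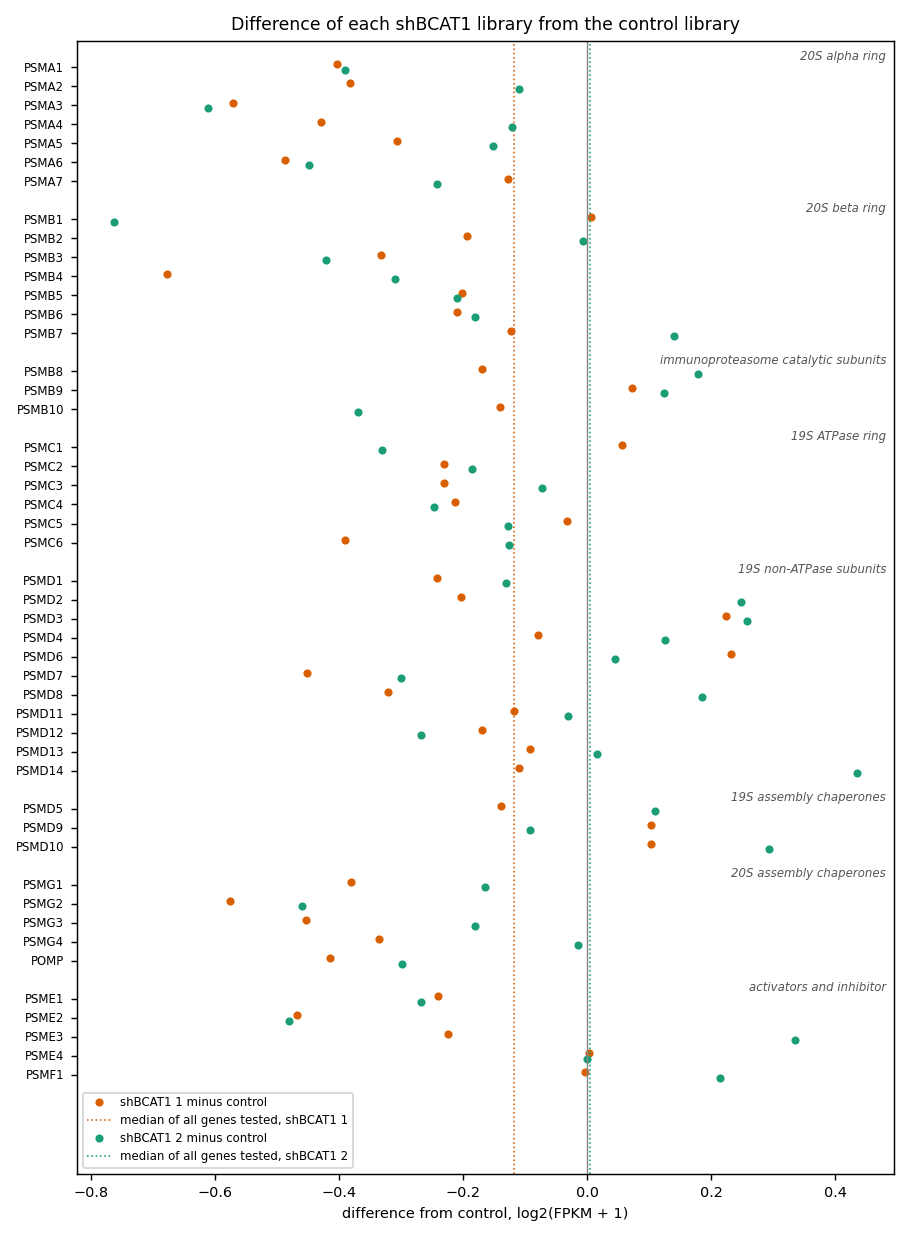
Difference of each gene from the control on the log2(FPKM + 1) scale, shBCAT1 1 in orange and shBCAT1 2 in green, by role, with dotted lines at the medians of all genes tested (-0.12 and 0.01). The 7 alpha ring genes and the 5 chaperones of the 20S core lie left of 0 in both libraries, and the non-ATPase 19S subunits lie on either side. Of all genes tested, 43.7% were lower in both libraries.

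Levels were uneven within each particle, although its subunits are used in equal numbers. Over the 14 constitutive core genes, the coefficient of variation was 81.5% in the control, 91.5% in shBCAT1 1 and 84.6% in shBCAT1 2. The highest, PSMA7, was 16.8, 21.3 and 17.1 times the lowest, which was PSMA5 in the control and shBCAT1 1 and PSMA1 in shBCAT1 2. Over the 17 listed genes of the 19S particle the coefficient was 73.0%, 72.3% and 76.9%, with PSMC3 highest and PSMD12 lowest of these in each library. The list does not hold every 19S subunit. SEM1, kept with the companion genes, was above PSMC3 in each library, at 75.6, 61.1 and 56.1 FPKM. Over the listed genes the unevenness was thus alike in all 3 libraries.

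Transcript length and level moved with these differences over the whole table. Genes with transcripts of 600 to 1000 bases had a median difference of -0.33 over all genes tested, those of 1000 to 1500 bases -0.17, those of 1500 to 2500 bases -0.05 and longer ones 0.05. The proteasome genes of the same classes had medians of -0.32 (9 genes), -0.25 (11), -0.15 (11) and -0.10 (9). By these lengths, the 600 to 1000 base class of proteasome genes was close to other genes of that class and the longest somewhat lower. Some lengths are not those behind the deposited FPKM, so some genes may sit in the wrong class. With the length trend of all genes removed, 16 of the 40 were lower in both libraries (40.0%, beside 34.4% of all genes) and 11 were higher (27.5%, beside 34.9%), and the median was -0.032, beside 0.01. The alpha ring had a median of -0.22 there, the beta ring -0.018 (beside -0.21 before), the 20S chaperones had -0.07 and the non-ATPase subunits 0.03. Among all genes of 600 to 1000 bases, the class that holds the beta ring's median length of 964 bases, 76.8% were lower in both. By level, proteasome genes with a mean of 1 to 2 FPKM had a median of 0.0055 (9 genes), beside 0.0080 for all genes of that level. Those of 2 to 5 FPKM had -0.24 (14), beside -0.04, and those of 5 to 10 FPKM had -0.07 (10), beside -0.16. Those of 10 to 20 FPKM had -0.38 (6), beside -0.24. The 1 gene at 20 FPKM or more, PSMA7, had -0.18, beside -0.37. Where the minimum mean was 5 FPKM, 11 of 17 proteasome genes were lower in both (64.7%), as were 64.6% of all genes. The part of length and level in the differences was not tested.

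**Figure D3:**
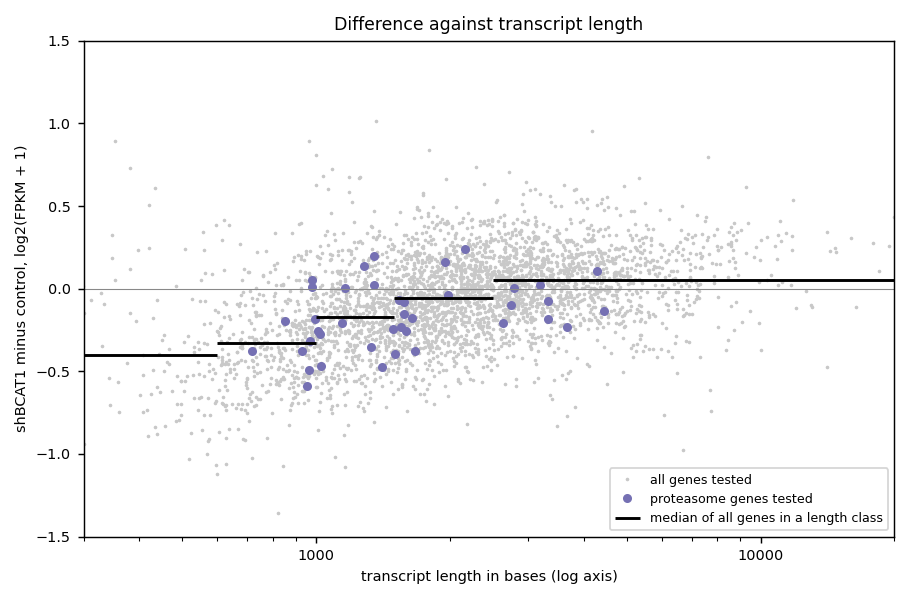
Fitted difference (shBCAT1 minus control, log2(FPKM + 1)) against transcript length (log axis) for all genes tested (grey) and the 40 proteasome genes tested (purple), with black bars at the median of all genes in each length class. The bars climb from -0.40 for the shortest class to 0.05 for the longest, and 73 of 3800 genes with a length lie outside the axes.

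For several genes the FPKM of the control lay on another RefSeq transcript than that of shBCAT1 1 or 2. These were picked after their values were seen. PSMC4, an ATPase, had 2.14 FPKM (bounds 1.38 to 2.90) on NM_006503 and 1.52 (0.884 to 2.15) on NM_153001 in the control. In both libraries labelled shBCAT1 nearly all of it lay on NM_006503, at 3.02 and 2.92 FPKM, and NM_153001 had an upper bound of 0.0798 in shBCAT1 1 and 0.0762 in shBCAT1 2. The sum was lower in both libraries while the main transcript was higher in both. PSMD2 had 69.6% of its FPKM on NM_001278708 in the control, 20.7% in shBCAT1 1 and 9.11% in shBCAT1 2. In shBCAT1 2 the split was poorly determined, with bounds of 0 to 11.1 FPKM on that transcript and 1.05 to 18.4 on NM_002808. PSMG1 was on NM_203433 in the control, at 1.22 FPKM (0.608 to 1.82), and on NM_003720 in shBCAT1 2, at 0.977 (0.469 to 1.48), with shBCAT1 1 on both. PSME3 had 1.11 FPKM on NM_005789 in the control, 1.10 in shBCAT1 2 and an upper bound of 0.0399 in shBCAT1 1, whose 0.806 FPKM lay on the noncoding NR_049772. Among transcripts with a mean of at least 1 FPKM, bounds were below those of the control in both libraries for 2 of 44 proteasome transcripts, of PSMA6 and PSME2 (4.55%, beside 5.88% of all transcripts), and above for 0 (2.85%).

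**Figure D4:**
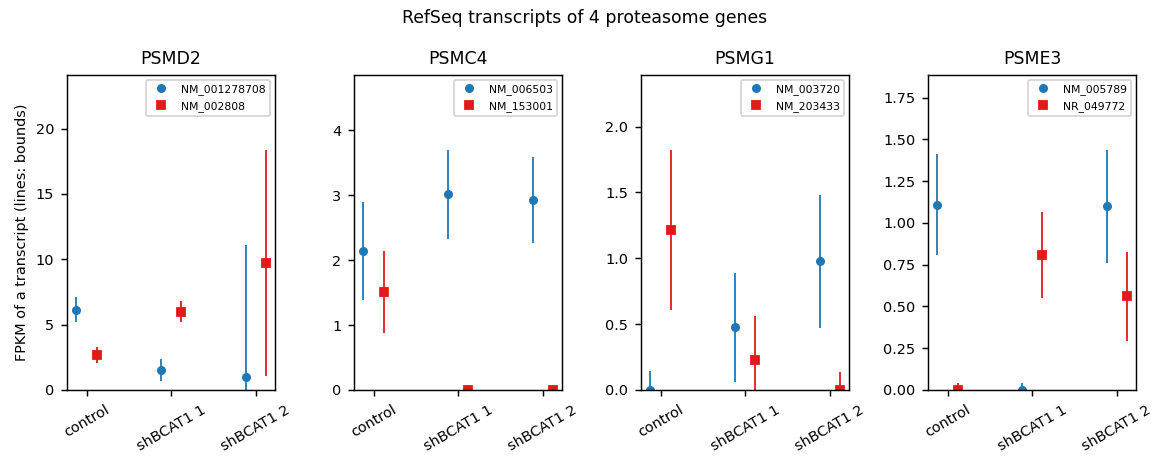
FPKM of the main RefSeq transcripts of PSMD2, PSMC4, PSMG1 and PSME3 in each library, with lines from the lower to the upper bound. In PSMC4 the red transcript is at 1.52 FPKM in the control and near 0 in both other libraries, and in PSMD2 the order of the transcripts in the control is the reverse of that in the others.

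Genes that work with the proteasome did not pass the limma test either, 0 of 26 tested at an adjusted p of 0.05, with 1 at an unadjusted p under 0.05, RPS27A. RPS27A, which encodes ubiquitin fused to a ribosomal protein, was at 69.1 FPKM in the control, 46.7 in shBCAT1 1 and 40.1 in shBCAT1 2, a difference of -0.66 ± 0.19 (SE). Its bounds did not overlap the control's in either library, and the adjusted p was 0.797 by limma. The difference was -0.21 with quantile normalization and -0.37 with the length trend removed. The polyubiquitin gene UBB was at 57.5, 46.3 and 44.1 FPKM, below the control in both libraries. It had bounds of 5.71 to 86.9 in shBCAT1 1 and turned to 0.13 with quantile normalization. UBA1, the main ubiquitin-activating enzyme, was at 3.12, 3.10 and 3.09 FPKM. UBA1, ADRM1, VCP and TAP1 are given for their roles and were added after their values were seen.

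SEM1, the smallest 19S subunit, was at 75.6 FPKM in the control, 61.1 in shBCAT1 1 and 56.1 in shBCAT1 2, with a fitted -0.36 ± 0.17 and, after quantile normalization, 0.11. The ubiquitin receptor gene ADRM1 was at 11.6, 10.4 and 12.2 FPKM. Of the 17 receptors, deubiquitinases and shuttles, 4 were lower in both libraries, 2 higher and 11 mixed, and 8 of the 17 were tested. Of all genes with no filter, 35.2% were lower in both and 27.4% higher. The shuttle gene UBQLN4 had a difference of -0.15, and ZFAND5 was at 0.532, 0.436 and 0.409 FPKM. Of 8 genes of the p97 unfoldase, which extracts proteins for the proteasome, 4 were higher in both and 3 lower. Of the 6 tested, 4 were higher in both and 1 lower, beside 25.6% and 43.7% of all genes tested. VCP itself was at 3.16, 2.84 and 3.14 FPKM. Its cofactor genes NSFL1C and UFD1 had differences of 0.16 and 0.17, and FAF2 was at 0.802, 0.688 and 0.694 FPKM. NFE2L1, which encodes NRF1, was at 1.64 FPKM in the control (1.33 to 1.94), 1.35 in shBCAT1 1 (1.08 to 1.63) and 2.06 in shBCAT1 2 (1.74 to 2.39). It was lower in one library and higher in the other, with a difference of 0.03 ± 0.24 and an adjusted p of 0.983. DDI2, the protease that activates NRF1, was at 0.107, 0.156 and 0.246 FPKM and the ubiquitin ligase gene SYVN1 at 1.75, 2.04 and 2.21. NFE2L2, which encodes NRF2, was at 0.845, 0.689 and 0.645 FPKM.

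Genes of peptide transport and MHC class I control were mostly low. The peptide transporter gene TAP1 was at 0.199 FPKM in the control, 0.161 in shBCAT1 1 and 0.273 in shBCAT1 2. NLRC5, the MHC class I transactivator, was at 0.0816 FPKM in the control (0.0239 to 0.139), 0.139 in shBCAT1 1 (0.0645 to 0.213) and 0.271 in shBCAT1 2 (0.171 to 0.372), with bounds apart from the control in the last. B2M was at 5.59, 4.69 and 4.51 FPKM.

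Promoters of 41 of the 47 genes were matched in the RefSeq table (GRCh38.p14) and their 250 bases before the start were searched on both strands. The letters TGACNNNGC are the core of the antioxidant response element that NRF1 and NRF2 bind. They were found in 11 of 41 (26.8%), in 11.0% of all 27305 promoters and in 13.5% of the 3079 of genes tested. Only 5 of these 11 genes were tested, beside 29 tested without the letters, so the 26.8% and the 13.5% are of unlike sets. CCAAT, the box bound by NF-Y, was found in 17 (41.5%), beside 33.04% of all and 37.0% of those tested. A pair of GAAA with any 2 bases between them, found in elements of interferon regulatory factors, was found in 5 (12.2%), beside 3.07% and 2.40%. The full element TGACTCAGC was found in 0 of 41 and in 0.465% of all promoters. TGACTCAGC is one form of TGACNNNGC, and a match is a description of letters, not a bound site. Tested proteasome genes with TGACNNNGC (5) had a median difference of -0.25 and those without it (29) of -0.17, and 3 and 19 of them were lower in both libraries. With CCAAT (15) the median was -0.15 and without it (19) -0.19, and 9 and 13 were lower in both. With the GAAA pair (4) it was -0.37 and without it (30) -0.14, and 4 and 18 were lower in both. Of all genes tested, 43.7% were lower in both. Differences between these sets were not tested.

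The windows below, 5′ to 3′ on the strand of the gene with the motif in capitals, are those of the GAAA pair in the 5 genes discussed above, with PSME2 at chr14:24146621-24146646 (gene on the minus strand), PSMB10 at chr16:67936854-67936879 (minus), PSMB4 at chr1:151399497-151399522 (plus), PSMG4 at chr6:3258906-3258931 (plus) and PSMA4 at chr15:78540157-78540182 (plus). PSME2, PSMB10 and PSMG4 share the same letters in capitals. In PSME2 and PSMB10 these letters lie inside the deposited locus of the gene.
PSME2: tggggagtGAAAGCGAAAgcccgggc
PSMB10: gtaaaggcGAAAGCGAAAgcaggaag
PSMG4: ccggggccGAAAGCGAAAgcgcgctc
PSMB4: gtctacagGAAAAAGAAAgaaatgac
PSMA4: agtgaagaGAAAATGAAAggagagcg

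Windows of TGACNNNGC are given for PSMD3 (chr17:39980762-39980786, plus strand), PSME2 (chr14:24146769-24146793, minus), PSMB3 (chr17:38752629-38752653, plus) and PSMG2 (chr18:12658691-12658715, plus), genes at both ends of the range of differences.
PSMD3: ccctttgtTGACTCGGCcatcggcc
PSME2: ctggactgTGACCCAGCcagcaccg
PSMB3: ctccgtttTGACTTTGCaaccaaac
PSMG2: gtttcccgTGACCCCGCggccgctc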

How the data were processed

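The authors deposited 1 table per library, with FPKM, its confidence limits (called bounds here) and a status for each RefSeq transcript, per the file headers. Trim Galore, TopHat, Cufflinks and hg38 are named in the submitters' processing notes. Their versions, settings and annotation: not given in the sources used here. Deposited FPKM corrects for length and total, not for a few abundant transcripts or for a trend with length.

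Each table held 56882 entries for 50337 accessions, of which 49277 were named from a RefSeq gene table (GRCh38.p14) and 649 from GENCODE release 29, and 411 stayed unnamed. A gene's FPKM is the sum of its entries, and 325 genes with a status other than OK were left out (0 of the 47, but TAP2 among the companion genes). The SD of a value is the distance from value to upper bound divided by 2, added in squares over entries as if these were independent, which is too wide where transcripts share reads (PSMD2). For genes with 1 transcript the square of value over SD was a whole number within 0.05 for 80.8%, 81.9% and 80.6% of genes with at least 1 FPKM in the control, shBCAT1 1 and shBCAT1 2, and for all 17 such proteasome genes, and was read as the fragments counted. Bounds cover the error of counting fragments and of assigning them to transcripts, not the spread between libraries.

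On log2(FPKM + 1), limma 3.58.1 with an intensity trend (R 4.3.3) gave the differences of genes whose mean reached 1 FPKM, with Benjamini-Hochberg adjustment and two-sided p. On this scale low genes appear to differ less than they do. With 1 control library, there is 1 residual degree of freedom (prior 3.02), all of it from the shBCAT1 pair, whose spread is taken to hold for the control too. The fit was run on simulated data with noise drawn from the shBCAT1 pair and changes larger than that of any proteasome gene. That run cannot speak for smaller differences or for the control's own spread. Lengths are those of GENCODE transcripts matched by accession, weighted by FPKM. They are not always the lengths behind the deposited FPKM, where fragments per FPKM rise with length. In the control PSMC1, given 4448 bases, had 85 fragments at 4.09 FPKM, and PSMC6, given 1590 bases, had 51 at 2.44. Length classes and values with the length trend removed carry this error, whose size was not measured. Alternatives were other pseudocounts, filters and scalings, primary chromosomes only, transcripts kept apart, the length trend removed by lowess (span 0.5) and leaving out each library labelled shBCAT1. Python 3.11.15, pandas 2.3.3, numpy 2.4.6, statsmodels 0.14.6 and matplotlib 3.10.9 were used. Deposited starts count from 0 and were raised by 1.

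Members, lists and tests were chosen with earlier results of these data known. Genes given in full are the 6 catalytic subunits, the most abundant gene of each role, up to 3 per role on the same side of the control in both libraries, ranked by the lesser of their differences, and genes higher in both, with up to 3 per companion list by the same measure and NFE2L1. Others are said to be picked after their values were seen or give a role's range. Some companion genes are not reported here.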

Additional observations from a re-analysis of the deposited data

How the results depend on the processing

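No adjusted call among the 40 tested proteasome genes or among the companion genes was gained or lost under any alternative run, all giving 0. Over all genes, 14 lower calls became 0 with no filter and 8 at a minimum mean of 5 FPKM or with transcripts kept apart, and 0 higher calls became 1 with a pseudocount of 0.1 and 2 with the length trend removed. The median difference of the 40 genes was -0.19, beside -0.06 for all genes tested. It was -0.10 with a pseudocount of 5 (all genes -0.026) and -0.12 with median-of-ratios scaling (all genes -0.0064). It was -0.054 with quantile normalization (all genes 0.018) and -0.032 with the length trend removed (all genes 0.01). When a library labelled shBCAT1 was left out it was -0.22 to -0.13. The 25 genes lower in both (62.5%, beside 43.7% of all genes) were 11 of 17 at a minimum of 5 FPKM (64.7%, beside 64.6%). They were 16 with the length trend removed (40.0%, beside 34.4%). The 3 higher in both (7.5%, beside 25.6% of all genes) were 7 with median-of-ratios scaling (17.5%, beside 35.9%). They were 10 with quantile normalization (25%, beside 38.3%) and 11 with the length trend removed (27.5%, beside 34.9%). They were 5 of 47 with no filter (10.6%, beside 27.4%) and 0 of 17 at a minimum of 5 FPKM (beside 12.2%). Against a single library they were 6 to 12. The 1 gene with bounds apart in both was 0 with median-of-ratios scaling and 2 against a single library.

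The direction of 14 named genes turned under an alternative. With quantile normalization, PSMA7 was at 0.18, PSMB6 at 0.046, PSMC3 at 0.079, SEM1 at 0.11 and UBB at 0.13. With the length trend removed, PSMA7 was at 0.072, PSMB5 at 0.0044, PSMB6 at 0.11, PSMD2 at -0.0072, PSMD9 at -0.0067, B2M at 0.039 and NFE2L1 at -0.038. With transcripts kept apart, PSMB5 was at 0.038, PSMB8 at -0.031, PSMC4 at 0.34 and SYVN1 at -0.26, and with a pseudocount of 0.1 PSMB8 was at -0.00017. Against a single library, PSMB7 ran from -0.12 to 0.14, PSMB8 from -0.17 to 0.18, PSMD2 from -0.20 to 0.25, PSMD9 from -0.092 to 0.10 and NFE2L1 from -0.16 to 0.22. The cause was not tested. Primary chromosomes alone gave the same values for these genes. No paired analysis was possible because the control has 1 library and its label carries no number. With 1 library labelled shBCAT1 left out no residual degree of freedom remains, so those values have no test.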
